A study of Mus musculus with 2 samples.

Results

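The 2-cell-state genes examined here were *Zscan4c*, *Zscan4d*, *Zscan4f*, *Tcstv1*, *Tcstv3*, *Zfp352*, *Usp17la* and *Tdpoz4*, and they are described beside *Rif1* and *Trim28*, both known as repressors of such genes. These 10 genes were chosen by name, with earlier results of these data known, among the 37018 genes or accessions on the array. Every probe whose accession maps to 1 of them was taken. Of the 10 genes, 9 had a probe and 8 had a probe that entered the test. No probe carried an accession of *Zscan4d*, and the probe of *Tdpoz4* was not well above background. Expression was measured in mouse embryonic stem cells (mESCs) of the genotype AIMP3f/f;cre-ERT2, derived as clones from blastocysts, in which both AIMP3 alleles are flanked by loxP sites and a tamoxifen-dependent Cre can excise them. Control and depleted cells alike carry the floxed alleles and the Cre, and both were kept in medium containing LIF. AIMP3-depleted cells received 2 μM tamoxifen for 4 days in 2 replicates, and the control cells received ethanol. RNA of each depleted replicate was labelled with Cy5, and RNA of the control replicates was combined into a single Cy3 target used on each array. The pool therefore counts as 1 control sample, and the variation from one control culture to another does not enter any test. There was no dye swap and no control received tamoxifen, so that the loss of AIMP3, the drug and a gene-specific dye effect cannot be told apart. Feeder layers of mouse embryonic fibroblasts are the usual culture according to the labels, whereas the methods describe fibroblast-conditioned medium for incubation with drugs.

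A small share of mESCs in culture passes at any time through a state that resembles the 2-cell embryo, the stage at which the mouse genome is first transcribed in earnest. Cells in this 2-cell-like state transcribe *Zscan4*, *Tcstv*, *Usp17l*, *Tdpoz* and *Pramel* genes and retroviral elements of the MERVL class, and they return to ordinary pluripotency after a while. The transcription factor DUX binds and activates many of these genes. Chromatin repressors, among them TRIM28 with its partner SETDB1, the telomere and replication timing factor RIF1, the histone chaperone CAF-1 and a variant Polycomb complex, keep them low in most cells. In an array of bulk RNA, more cells in this state and more RNA per cell cannot be told apart.

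The *Zscan4* genes are copies of each other, and because the probes of *Zscan4c* and *Zscan4f* rose, the promoters of the members with this name are shown first. *Zscan4d*, which had no probe, is shown with them. Of the 10 genes, 7 had a promoter window in RefSeq (GRCm38.p6). The 216 bases that *Zscan4c* (chr7:11005506-11005721, plus strand), *Zscan4d* (chr7:11166183-11166398, minus strand) and *Zscan4f* (chr7:11397699-11397914, plus strand) share without a gap, all upstream of the annotated starts, are printed below from 5′ to 3′. Capitals mark the 7 positions at which the copies differ.
Zscan4c: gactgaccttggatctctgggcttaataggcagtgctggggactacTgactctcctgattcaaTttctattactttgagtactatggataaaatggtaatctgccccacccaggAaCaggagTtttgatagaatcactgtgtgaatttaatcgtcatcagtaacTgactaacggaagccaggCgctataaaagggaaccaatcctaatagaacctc
Zscan4d: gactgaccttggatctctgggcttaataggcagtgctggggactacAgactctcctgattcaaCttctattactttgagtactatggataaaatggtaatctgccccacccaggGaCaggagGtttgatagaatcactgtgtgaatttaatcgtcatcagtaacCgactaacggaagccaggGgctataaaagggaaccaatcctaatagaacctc
Zscan4f: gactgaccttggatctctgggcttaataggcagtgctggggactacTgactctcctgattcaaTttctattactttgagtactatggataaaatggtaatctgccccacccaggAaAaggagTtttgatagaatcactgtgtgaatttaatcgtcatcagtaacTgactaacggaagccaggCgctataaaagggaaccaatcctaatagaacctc

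Over these bases *Zscan4c* and *Zscan4f* were identical at 215 of 216 positions, *Zscan4c* and *Zscan4d* at 210, and *Zscan4d* and *Zscan4f* at 209. Each of the 3 windows held the TATA-box letters TATAAAA, searched on both strands, which 5.48% of the 32851 RefSeq promoter windows of the same length held. The letters TGATTNAAT, which open the motif known for mouse DUX and do not overlap the TATA-box letters, were found in *Zscan4c* and *Zscan4f* and in 0.718% of all windows, whereas the *Zscan4d* window lacked them. Neither string was found in the windows of *Usp17la*, *Zfp352*, *Tdpoz4* or *Trim28*. The promoter windows of the 2-cell-state genes were poor in CpG, with 4 CpG in *Zscan4c*, 3 in *Zscan4d* and *Zscan4f*, 2 in *Zfp352*, 1 in *Usp17la* and 0 in *Tdpoz4*, against a median of 7 over all windows. The *Trim28* window held 23 CpG and was 64.0% G and C, above the median of 52.7%, while those of the 2-cell-state genes lay between 36.7% and 47.7%. These letters and shares describe the windows and were not compared with the array values by a test.

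AIMP3 itself was checked first. *Eef1e1*, the gene that encodes AIMP3, gave a log2 ratio of -0.90 on either array, so that the labelled depleted RNA held less of it (mean -0.90 ± 0.0066, SD, n = 2). Its Benjamini-Hochberg adjusted p was 7.63e-05 in the limma fit over all probes, which gives every adjusted p here. Log2 ratios are those of AIMP3-depleted over control, the direction given by the labels and opposite to the wording of the methods, after normexp background correction and loess normalization within each array. Each array had 62976 spots, between 59.3% and 60.6% of spots were well above background in a channel, and signals had a median of 2.68 to 3.31 times the background. Tests were run on the 33043 of 55681 probes that stood well above background on both arrays, in 1 channel or both. A probe was called when its mean passed 1.5-fold with an unadjusted limma p under 0.05. By this rule 4.97% of all tested probes were called higher and 0.744% lower, and 1.01% were called higher at 2-fold. Rises made up 87.0% of the calls, a share that was 68.4% with the scanner software's processed signals, 97.6% with median centring and 74.9% in the authors' table. All 1887 probes past 1.5-fold met the p threshold, which leaves the fold as the deciding criterion. At any fold 27.7% of probes had an adjusted p under 0.05 and a positive ratio while 22.8% had one and a negative ratio. The p-values measure the spread between these 2 arrays only, a number that limits their precision.

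In AIMP3-depleted mESCs, 7 of the 10 tested probes of the 2-cell-state members rose and 0 fell, against 4.97% and 0.744% of all tested probes. The members were chosen with earlier results of these data known, so this contrast is no independent test. These 7 probes are named for *Zscan4c*, *Zscan4f*, *Tcstv1*, *Tcstv3* and *Usp17la*, which are 5 of the 6 member genes tested. Several of these genes belong to families of copies, and probes of such copies may read the same transcripts. The probes and genes called therefore cannot be counted as independent. The 10 probes had a median log2 ratio of 0.67, against 0.01 over all tested probes, with 0.75 in replicate 1 and 0.64 in replicate 2. By unadjusted limma p alone, 1 of the 10 passed with a ratio below 0, the bright *Zfp352* probe, against 26.7% of all tested probes. *Zfp352* did not pass the fold with either of its probes. *Rif1* and *Trim28* had ratios below 0 that did not reach 1.5-fold.

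*Zscan4* genes encode proteins with a SCAN domain and zinc fingers that are known for telomere maintenance and genome stability in mESCs, and they define the 2-cell-like state in many studies. *Zscan4c* was read by 3 probes. The probe A_55_P2007017 gave log2 ratios of 1.12 and 1.15 on the arrays of replicates 1 and 2. Its normalized log2 level was 12.48 and 12.30 in depleted cells against 11.36 and 11.15 in the control pool, so that both depleted levels lay above both control levels. The level rose 2.20-fold (95% confidence interval 2.03 to 2.37, adjusted p = 5.62e-05 by limma, n = 2 arrays), which ranked 199 from the highest among all 33043 tested probes. The probe A_55_P2019533 gave 1.19 and 1.04, a 2.17-fold rise (interval 1.98 to 2.37, adjusted p = 7.07e-05 by limma, n = 2 arrays).

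The remaining *Zscan4c* probe, A_52_P363843, rose less and was less even, with log2 ratios of 0.89 and 0.55 (mean 0.72 ± 0.24, SD, n = 2). It passed the threshold by its mean (1.65-fold, interval 1.44 to 1.89, adjusted p = 0.000853 by limma), while the array of replicate 2 alone lay under 1.5-fold. The difference between its arrays was in the depleted channel, where the normalized log2 level was 10.72 in replicate 1 and 10.35 in replicate 2. In the control pool it was 9.82 and 9.79. For A_55_P2019533 the depleted level was 13.31 and 13.12 and that of the control pool 12.12 and 12.07.

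*Zscan4f* gave a log2 ratio of 1.04 on either array, with normalized log2 levels of 14.69 and 14.64 in depleted cells and 13.66 and 13.60 in the control pool. It rose 2.05-fold (interval 1.90 to 2.22, adjusted p = 6.05e-05 by limma, n = 2 arrays). The spread between the arrays was 0.0016 (SD), far under the median SD of 0.051 over all tested probes. *Zscan4a*, a further copy that is not among the 10 genes, was read by a pair of probes with mean log2 ratios of 1.05 and 1.21, and both rose. In all, 6 of 6 probes named for this family were called, with a median of 1.08. As the files hold no probe sequences, the share of each copy in these signals cannot be told apart.

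*Tcstv1* and *Tcstv3* belong to a gene cluster named for transcripts found at the 2-cell stage. Both rose, and both lay close to the threshold. *Tcstv1* gave log2 ratios of 0.61 and 0.63 (1.53-fold, interval 1.42 to 1.66, adjusted p = 0.000207 by limma, n = 2 arrays). *Tcstv3* gave 0.55 and 0.65, so that the array of replicate 1 alone lay under 1.5-fold (mean 1.52-fold, interval 1.39 to 1.65, adjusted p = 0.000294 by limma). Their intervals reach below 1.5-fold but not to 1. The other genes of this group, *AF067061*, *BC147527* and *Gm20767*, rose as well, and the 6 probes ran from 0.60 to 0.78 on the log2 scale.

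*Usp17la* encodes a deubiquitinating enzyme of a tandem family, and its 2 probes disagreed. The probe A_55_P2002795 gave log2 ratios of 0.97 and 0.96 and rose 1.96-fold (interval 1.81 to 2.12, adjusted p = 6.86e-05 by limma, n = 2 arrays). Its normalized log2 level was 10.58 and 10.52 in depleted cells against 9.60 and 9.56 in the control pool. The probe A_55_P2002792 gave a log2 ratio of -0.07 on either array (adjusted p = 0.232 by limma), with spot signals between 199 and 288 over backgrounds between 46 and 63. Under median centring or in the authors' table its ratio turned to 0.02 and 0.03. Over the family, which holds *Usp17lb*, *Usp17lc*, *Usp17ld* and *Usp17le* as well, 2 of 6 probes rose, the second being *Usp17lb* at 0.75, and the median was 0.34. Which transcripts of the family each probe reads cannot be told from the files, as they hold no probe sequences.

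*Zfp352*, a zinc finger gene transcribed in cleavage-stage embryos, did not rise with the other members. Its bright probe A_55_P2060343 gave log2 ratios of -0.25 and -0.29. On both arrays the normalized log2 level was lower in depleted cells (12.85 and 12.69) than in the control pool (13.11 and 12.99). The ratio amounted to 0.828-fold (interval 0.765 to 0.896, adjusted p = 0.00423 by limma), which did not reach the fold, and 22.8% of all tested probes had an adjusted p under 0.05 with a ratio below 0. Under median centring its log2 ratio was -0.03, with an adjusted p of 0.762 by limma. The dim probe A_55_P2182056 gave -0.02 and 0.30 (mean 0.14 ± 0.23, SD, n = 2, adjusted p = 0.19 by limma), and its arrays lay on either side of 0. *Tdpoz4*, which encodes a protein with MATH and BTB domains, was well above background in 0 of its 4 channel readings. Its log2 ratios were 0.01 and 0.39, and only the setting without a filter on dim probes tested it (adjusted p = 0.173 by limma).

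**Figure D1:**
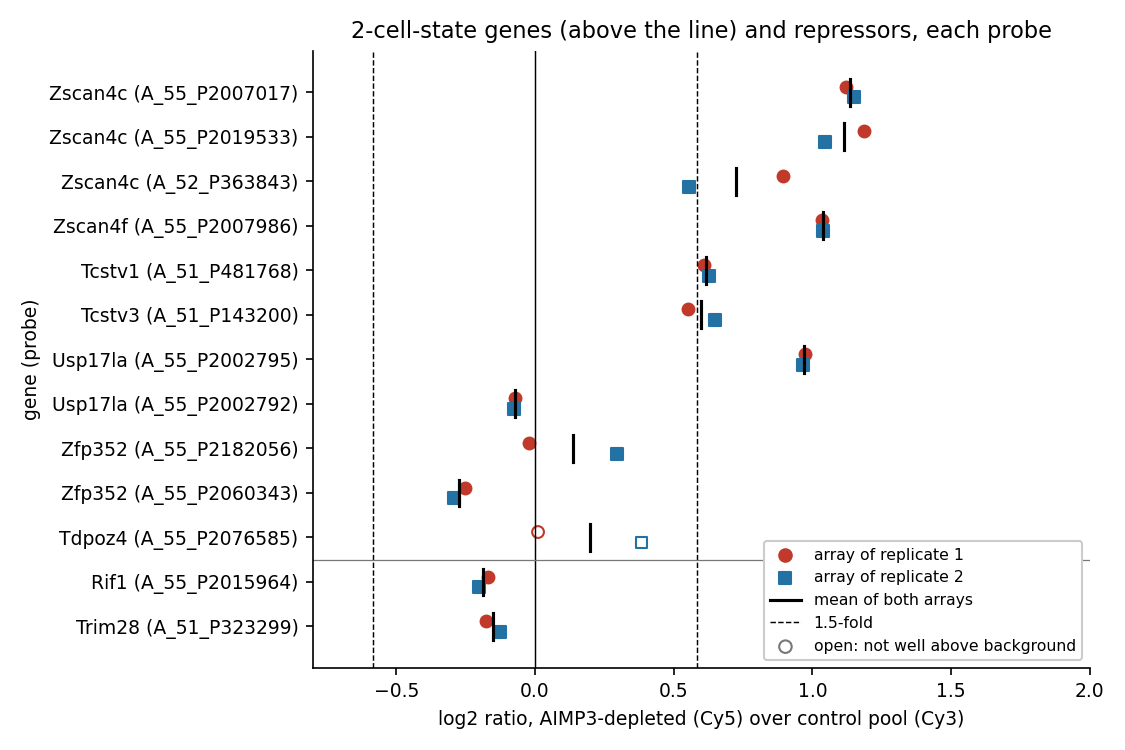
Log2 ratio of AIMP3-depleted (Cy5) over the control pool (Cy3) for each probe of the members (rows), with a circle for the array of replicate 1, a square for that of replicate 2, a bar for their mean and dashed lines at 1.5-fold. The 4 probes named for Zscan4 genes, both Tcstv probes and 1 of the 2 Usp17la probes have means to the right of the line, while Zfp352, Rif1 and Trim28 lie inside it and Tdpoz4 (open symbols) was not well above background.

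**Figure D2:**
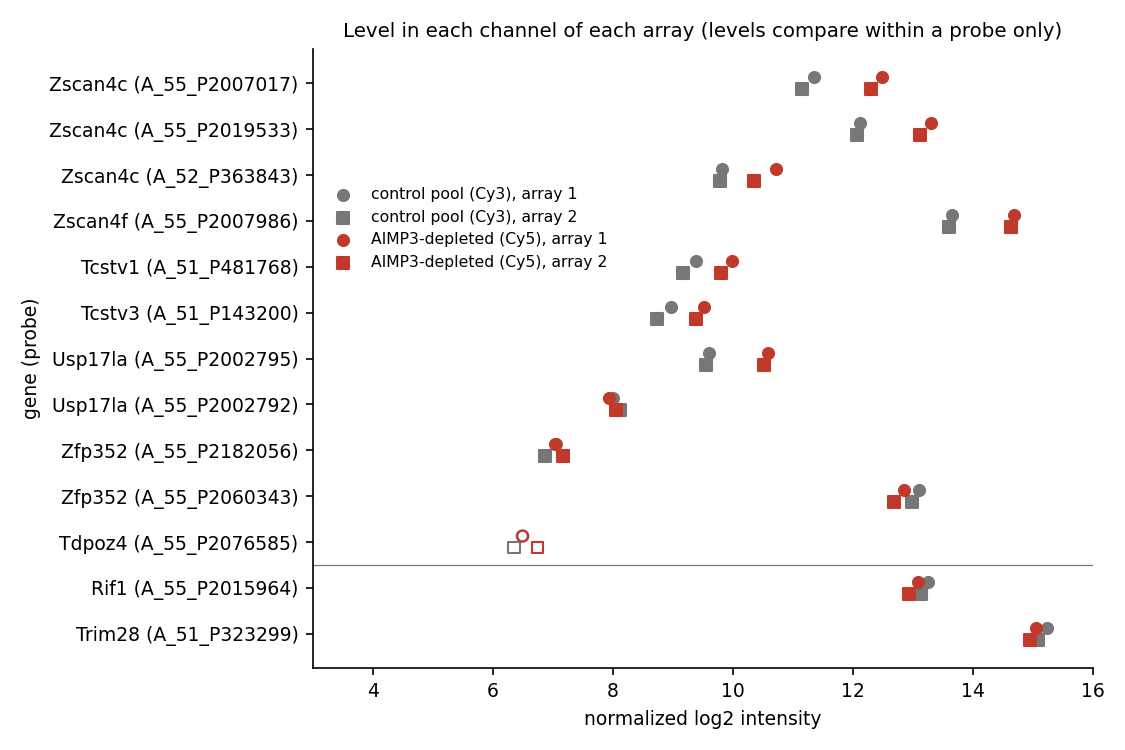
Normalized log2 intensity of each member probe in the control pool (grey, Cy3) and in AIMP3-depleted cells (red, Cy5) on the array of replicate 1 (circles) and replicate 2 (squares), to be compared within a row only. In the 7 rows of the probes that rose, both red symbols lie to the right of both grey ones.

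The control pool was the same RNA on both arrays, and its normalized level differed between them by an SD of 0.14 over all tested probes, on the log2 scale. The level in depleted cells, which came from separate replicates, differed by an SD of 0.15, and the ratio by 0.13. In the 7 probes that rose, the lower depleted level lay above the higher control level in each case. As these probes were picked by their ratio, this separation is no further test. For *Tcstv1*, the closest of them, the levels were 9.99 and 9.80 in depleted cells and 9.39 and 9.17 in the control pool.

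*Rif1* and *Trim28* were each read by 1 probe. *Rif1* gave log2 ratios of -0.17 and -0.20 and *Trim28* gave -0.18 and -0.13. *Rif1* lay at 0.879-fold of the control (interval 0.813 to 0.951, adjusted p = 0.0174 by limma, n = 2 arrays). *Trim28* lay at 0.900-fold (interval 0.831 to 0.974, adjusted p = 0.0369 by limma, n = 2 arrays). Neither reached 1.5-fold. Their adjusted p lay under 0.05, but not under every setting. Of all tested probes, 22.8% had both such a p and a ratio below 0. With no filter on dim probes the adjusted p was 0.0582 for *Rif1* and 0.101 for *Trim28*, and in the authors' table it was 0.0683 and 0.263, all by limma. With the processed signals it was 0.0471 for *Rif1* and 0.129 for *Trim28* by limma. From the highest, they ranked 27049 and 25602 of the 33043 probes. Their direction depended on the scaling. When the arrays were median centred in place of loess, *Rif1* turned to 0.06 (adjusted p = 0.457 by limma) and *Trim28* to 0.22 (adjusted p = 0.00464 by limma), while the median of all probes moved from 0.01 to 0.16. Relative to the median of all probes, *Rif1* ran from -0.19 to -0.09 over the 7 settings that keep both arrays and score each probe, and *Trim28* from -0.16 to 0.07.

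The wider list of 2-cell-state genes was examined by the same rule. Of 42 further genes listed, 28 had a probe, and 31 probes of 22 genes could be tested. In the control pool 29 of the 31 were well above background on both arrays, and the other 2 passed the filter through the depleted channel alone. All 31 had a positive mean log2 ratio, as did 16947 of all 33043 tested probes. The 31 ran from 0.14 to 1.21 with a median of 0.72. Of these, 22 probes (71.0%, against 4.97% of all tested probes) rose, 5 of them over 2-fold (1.01% of all), and 0 fell (0.744% of all). This list, too, was chosen with earlier results of these data known. The probes that rose are named for 14 genes. Some of these are copies of each other, whose probes may read the same transcripts, so the counts are not of independent genes.

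The largest rise among these genes was that of *Zscan4a* at 1.21, followed by that of *Gm4340*, which gave 1.11 on each array. *Gm2016*, *Gm2022* and *Gm8300*, whose products resemble a translation initiation factor, rose with all 8 of their probes (median 0.97). *Tmem92*, a membrane protein gene, gave log2 ratios of 0.90 and 0.92. *Sp110*, which encodes a nuclear body protein, rose with 2 of 3 probes, at 0.66 and 0.73, and its other probe gave 0.48. *Pramel16* at 0.62 and *Pramel19* at 0.62, of the PRAME-like family of leucine-rich repeat proteins, rose, whereas *Pramel17* gave 0.46 and *Pramel48* gave 0.27. *AA792892* rose at 0.68. Of 6 probes of *Tdpoz* genes only that of *Tdpoz2* was well above background, with a ratio of 0.14 and no call.

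Other repressors of the state followed. Of 35 listed genes, 34 could be tested with 54 probes. By limma 0 probes were called in either direction. An unadjusted p under 0.05 was found for 8 of the 54 with a positive ratio and 28 with a negative one. Over all tested probes the shares were 31% and 26.7%. The list thus held a smaller share with a positive ratio and a larger share with a negative one. The list ran from -0.56 to 0.53 with a median of -0.12, and 16 ratios were positive and 38 negative, against 16947 and 16096 over all tested probes. Under median centring this median turned to 0.13, where the median of all tested probes was 0.16. *Chaf1b*, a subunit of the chromatin assembly complex CAF-1, came closest from below with probes at -0.55 and -0.56 (adjusted p = 0.00040 and 0.00030 by limma). They ranked 32699 and 32744 from the highest, and on the array of replicate 2 alone both passed the fold, at -0.594 and -0.593. The nearest from above was *E2f6*, a subunit of the variant Polycomb complex, at 0.53 (adjusted p = 0.00036 by limma, rank 2006). *Setdb1*, the methyltransferase that TRIM28 recruits, gave -0.11, and *Kdm1a*, a histone demethylase, gave -0.15. The SUMO gene *Sumo2* was read by 5 probes between -0.34 and -0.12. Probes of 1 gene could lie far apart, as in *Ncl* (-0.48 and 0.24) and *Ehmt1* (0.40 and -0.04).

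Activators of the state were also uncalled by limma (0 of 7 probes). An unadjusted p under 0.05 was found for 1 of the 7 with a positive ratio and 2 with a negative one, against 31% and 26.7% of all tested probes. The 7 probes of *Dppa2*, *Dppa4*, *Nelfa* and *Trp53* ran from -0.20 to 0.22 with a median of -0.06. *Trp53*, which encodes p53, gave -0.12 and -0.16. The gene of DUX, kept in the wider list of 2-cell-state genes, had no probe named for it.

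**Figure D3:**
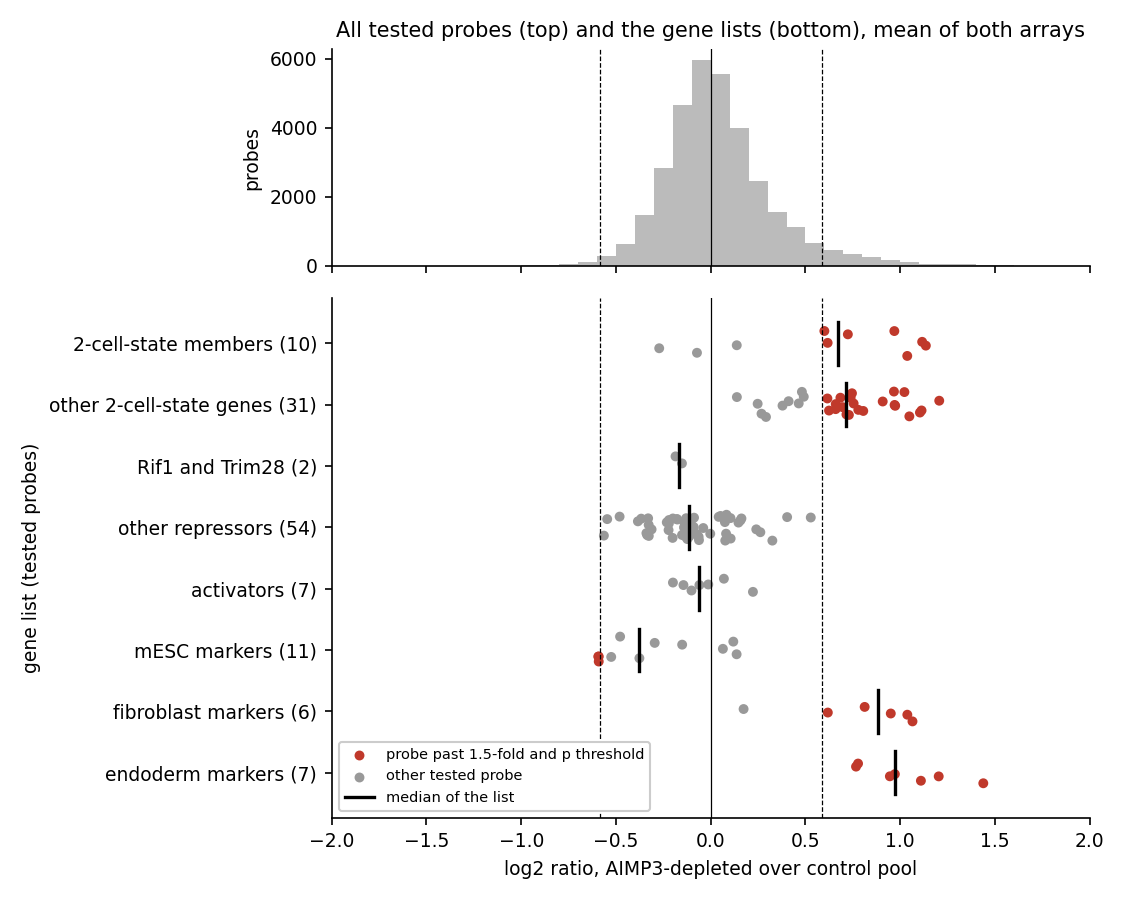
Top, number of tested probes (y axis) by log2 ratio of AIMP3-depleted over control in bins of 0.1. Bottom, each tested probe of the gene lists on the same x axis, red where it passed 1.5-fold and the p threshold, with a bar at the median of the list and a vertical spread within a row that only separates the points. The 2-cell-state lists have medians of 0.67 and 0.72, the repressor lists -0.17 and -0.12, and the fibroblast and endoderm markers 0.88 and 0.97.

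Markers of other cells moved in the same samples. Markers of fibroblasts, the feeder cell type, rose with 5 of 6 probes (median 0.88), *Col1a1* at 1.06, *Col1a2* at 1.04, *Col3a1* at 0.95, *Col6a1* at 0.81 and *Pdgfrb* at 0.62, while *Thy1* gave 0.17. Their summed normalized intensity was between 19390 and 19715 in the control pool and between 34940 and 36121 in depleted cells. Markers of primitive endoderm rose with 7 of 7 probes (median 0.97), *Sox17* at 1.44 and 0.95, *Gata6* at 1.20, *Sox7* at 1.11, *Pdgfra* at 0.97, *Dab2* at 0.78 and *Gata4* at 0.77. Their sum was between 2229 and 2457 in the control pool and between 4655 and 4766 in depleted cells. Markers of mESCs were well above background with 11 of 11 probes in both channels, and 3 probes, all of *Tdgf1*, fell, at -0.59 each (median of the list -0.38). Of the 11 ratios 8 were negative, among them *Sox2* at -0.53, *Pou5f1* at -0.48 and the brighter of the 2 *Nanog* probes at -0.38. The 3 positive ratios were *Klf4* at 0.14, *Esrrb* at 0.12 and the dimmer *Nanog* probe at 0.06. The summed intensity of all 11 was between 151354 and 154118 in the control pool and between 115447 and 122471 in depleted cells. None of the fibroblast or endoderm markers was at background in the control pool, with 0 of 13 probes below it. The part of these cells in the ratios of the 2-cell-state genes was not tested.

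The calls of the members depended little on how the ratio was computed. The 7 probes were called under every background correction, dye normalization and filter tried, with *Tcstv3* between 0.59 and 0.77 and *Tcstv1* between 0.62 and 0.80. By a single array 6 of them passed the fold, without *Tcstv3* on that of replicate 1 and without the *Zscan4c* probe A_52_P363843 on that of replicate 2. At 2-fold 3 probes remained called, 2 of *Zscan4c* and that of *Zscan4f*. With the probes of a gene averaged, *Usp17la* at 0.45 no longer reached the fold and 4 genes were called. The dim *Zfp352* probe ran from 0.09 to 0.45 over the settings with both arrays, and stood at -0.02 without replicate 2.

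**Figure D4:**
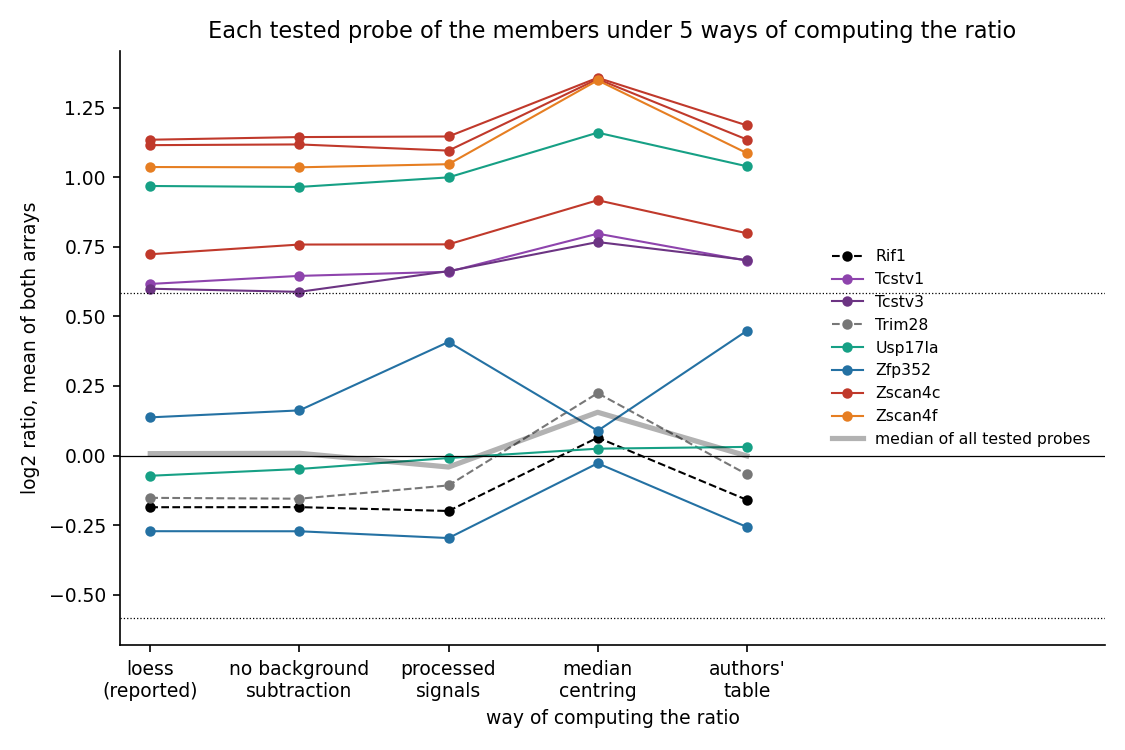
Mean log2 ratio of each tested member probe (y axis) under 5 ways of computing it (x axis), coloured by gene, with repressors dashed, the median of all tested probes as a broad grey line and dotted lines at 1.5-fold. The 7 called probes stay above the upper dotted line throughout, and Rif1 and Trim28 lie above 0 under median centring, where the median of all probes is 0.16.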

How the data were processed

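Two-colour Agilent mouse arrays of 2 AIMP3-depleted replicates against a common control pool were used. Per array, the authors deposited the scanner file (Feature Extraction 11.5.1.1 in the file header), with the intensity of each spot and its local background, processed signals after dye normalization, and a log10 ratio. The authors also deposited a table of log2 ratios, which equals the log2 ratio of the processed signals plus 0.04 on the array of replicate 1, within 0.01 for 99.8% of probes. The medians of its columns were 0.09 and 0.11. The direction (Cy5 depleted, Cy3 control) came from the labels, while the methods word the ratio as control over test.

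Median intensities were used. The design had assumed means, which these files lack. Normexp (offset 50) corrected the background, arrays were normalized by loess, and control spots, and spots with an outlier flag, were left out (215 and 227 flagged spots). Spots of a probe were averaged. Probes that stood well above background on neither channel of an array were left out (22638). Accessions were named through a RefSeq table (27509 probes matched), used for names only. Mean ratios were compared with 0 in limma 3.58.1 (lmFit, eBayes; R 4.3.3), with 1 residual and 5.29 prior degrees of freedom, over all probes. The labels do not say whether replicates came from separate cultures, so p-values may measure technical spread. The steps were tested on simulated data. Both arrays lay on 1 slide, and 0 columns of per-sample values were left unused.

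Every member was named with every probe, as were genes of the other lists past the threshold. Probes named for comparison below it, namely *Pramel17*, *Pramel48*, *Thy1*, *Tdpoz2*, the mESC markers other than *Tdgf1*, the repressors and *Trp53*, were chosen after their values were seen. The value of 1 further gene of the lists is not reported here. The members and lists were chosen with earlier results of these data known. Promoter windows came from RefSeq GRCm38.p6. Alternatives were no background subtraction, processed signals, median centring, other filters on dim probes, the deposited table, 1 value per gene, a 2-fold threshold and each replicate left out.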

Additional observations from a re-analysis of the deposited data

How the results depend on the processing

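Member probes called higher stood at 7 under each background correction, normalization and filter, at 3 with a 2-fold threshold and at 5 genes with the brightest or 4 with the mean of the probes, and at 6 without either replicate (1 array, fold alone, no test). Counts over all probes moved more. Called higher and lower, they were 1641 and 246 as reported, 2560 and 1180 with processed signals, 3382 and 84 with median centring, 2810 and 941 in the deposited table, and 333 and 19 at 2-fold. Other 2-cell-state genes called higher numbered 14 with 1 value per gene, by construction fewer than the 22 probes. Other repressors called higher numbered 2 under median centring, and those called lower between 0 and 2 without 1 replicate.

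Median centring turned the medians of *Rif1* with *Trim28* (0.14) and of the other repressors (0.13), and the ratios of *Rif1* (0.0645), *Trim28* (0.224) and the *Usp17la* probe A_55_P2002792 (0.0247). The median of all tested probes was then 0.16, and relative to it the medians of the repressor lists were -0.011 and -0.023. In the deposited table the ratio of that *Usp17la* probe was 0.0311. The *Zfp352* probe A_55_P2182056 was 0.297 without replicate 1 and -0.0227 without replicate 2. The cause of these shifts was not tested. No paired analysis was possible because the control is 1 pooled sample. The number of arrays and, for dim probes such as that of *Tdpoz4*, the signal over background limit what could be measured.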
